A study of Mus musculus with 3 samples.

Results

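The fibroblast growth factor (FGF) receptor genes Fgfr1, Fgfr2, Fgfr3 and Fgfr4 were followed through the deposited DamID gene lists of GFI1 and GFI1B in mouse haemogenic endothelium. The members are the 4 genes of that family, found by their symbol, and 3 of the 4 have a row in at least 1 of the lists, which together name 7612 genes. Fgfr2 was listed for both fusions, Fgfr3 for both, Fgfr1 for GFI1B and not for GFI1, and Fgfr4 for neither. The family was chosen because Fgfr2 carries many widely spread intervals in these lists, so the number and spread of its intervals are given as a description.

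DamID uses a fusion of the protein of interest to DAM, the adenine methyltransferase of Escherichia coli, which methylates GATC sites near the places where that protein sits. The series holds GFI1:DAM, GFI1B:DAM and a DAM control, 3 samples in all, each made from AinV18 embryonic stem cells that carry the doxycycline-inducible construct in the docking site at HPRT. The labels name no deletion for any of them and do not say whether or when doxycycline was added. FLK1+ cells came from embryoid bodies at day 3.25, and haemogenic endothelium was then sorted by TIE-2 and c-KIT at culture day 2. The labels put 2 biological replicates into each sample and the lists do not separate them, so no value below has an error between replicates and no difference could be tested. Each construct was an inducible transgene, and the labels do not say whether a line is a single clone. The sorted cell type could not be checked here, since the lists hold no expression values. A gene without a row was not listed, which does not show that it was unbound, and the DAM sample itself was not analysed here, although control reads may already be subtracted in the lists.

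FGF receptors are receptor tyrosine kinases. They bind an FGF together with heparan sulphate, pair up at the membrane, and pass the signal through the docking protein FRS2 to the RAS-MAPK, PLC-gamma and PI3K routes. Sprouty proteins and dual-specificity phosphatases are made in response and damp the signal. FGF signalling is known for its role in the formation and patterning of mesoderm, the source of endothelium and blood. GFI1 and GFI1B are zinc-finger repressors that recruit the histone demethylase LSD1, and the core of the DNA motif known for their zinc fingers is AATC.

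DAM can only mark DNA at GATC, so the promoters of Fgfr2, Fgfr3 and Fgfr4 are shown with each GATC and each AATC (or GATT, its reverse complement) in capitals. The sequences are the 250 bases before the annotated start, 5′ to 3′ on the gene's strand, from RefSeq on GRCm38. The lists use the older build mm9, and no position of an interval was carried over to these windows. No promoter entry was matched to Fgfr1, so no window is shown for it.
Fgfr2 (chr7:130266809-130267058, minus strand): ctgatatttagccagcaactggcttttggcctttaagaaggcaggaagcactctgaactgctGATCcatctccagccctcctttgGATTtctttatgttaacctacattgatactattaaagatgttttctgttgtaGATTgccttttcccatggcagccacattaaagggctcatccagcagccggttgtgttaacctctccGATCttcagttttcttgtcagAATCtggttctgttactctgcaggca
Fgfr3, first start (chr5:33721474-33721723, plus strand): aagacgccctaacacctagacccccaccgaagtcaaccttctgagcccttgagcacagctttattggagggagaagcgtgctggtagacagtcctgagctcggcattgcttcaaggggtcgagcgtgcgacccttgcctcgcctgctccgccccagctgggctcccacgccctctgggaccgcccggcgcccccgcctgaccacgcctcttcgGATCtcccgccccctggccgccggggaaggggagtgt
Fgfr3, second start (chr5:33722056-33722305, plus strand): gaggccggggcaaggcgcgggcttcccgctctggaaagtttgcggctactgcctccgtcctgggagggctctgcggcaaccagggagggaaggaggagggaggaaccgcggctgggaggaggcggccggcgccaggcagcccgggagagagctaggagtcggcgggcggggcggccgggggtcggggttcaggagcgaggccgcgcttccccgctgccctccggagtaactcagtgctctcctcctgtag
Fgfr4 (chr13:55152568-55152817, plus strand): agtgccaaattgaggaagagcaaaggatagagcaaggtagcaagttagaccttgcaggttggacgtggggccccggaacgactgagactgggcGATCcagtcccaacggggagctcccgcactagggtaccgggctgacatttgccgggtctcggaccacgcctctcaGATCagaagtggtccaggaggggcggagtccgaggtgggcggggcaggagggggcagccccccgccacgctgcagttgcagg

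The Fgfr2 window holds 2 GATC and 3 AATC on either strand, none of them overlapping each other. The Fgfr4 window holds 2 GATC and no AATC. The first Fgfr3 window holds 1 GATC and no AATC, and the second holds neither. Of the 32851 promoter windows of the table, 41.9% hold a GATC and 69.0% an AATC on either strand, so these short words are common. G and C made up 44.0% of the Fgfr2 window, 64.0% of the Fgfr4 window and 66.8% and 72.8% of the Fgfr3 windows, where the median over all windows was 52.4%.

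Among the receptors, 2 of 4 were listed for GFI1 and 3 of 4 for GFI1B, where the lists held 18.4% and 19.1% of all protein-coding RefSeq genes and 9.24% and 9.45% of all RefSeq genes. In the upper part of each list by reads per kb, above its median, stood 1 receptor, Fgfr2, and 9.01% and 9.53% of protein-coding genes. Long genes are listed more often, and the receptors differ in length. Fgfr2 spans 104 kb in RefSeq, and the GFI1 list held 41.7% and the GFI1B list 43.8% of protein-coding genes within 25% of that length. Fgfr1 spans 57.0 kb, a length at which 28.2% and 28.5% were listed. Fgfr3 and Fgfr4 are short, at 15.3 and 15.9 kb, and the lists held 12.4% (GFI1) and 13.8% (GFI1B) of genes near the length of Fgfr3 and 12.5% and 14.0% near that of Fgfr4. All listed receptors had at least 1 interval listed under no other gene. So did 3841 of the 4022 listed protein-coding genes for GFI1 and 3880 of the 4180 for GFI1B, so this is common among listed genes. Of all protein-coding genes, listed or not, these made up 17.5% and 17.7%. With 4 members these counts say little about the family as a whole.

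The authors' reads per kb of interval placed Fgfr2 above the middle of both lists and the other receptors below it. The scale is not adjusted for library size, so it ranks genes inside a list and is not compared between lists. In the GFI1 list Fgfr2 stood at 60.6 reads per kb, rank 1573 of 5238, and Fgfr3 at 35.0, rank 4391. In the GFI1B list Fgfr2 stood at 84.9, rank 905 of 5327, Fgfr1 at 52.2, rank 2788, and Fgfr3 at 41.5, rank 3960. The list medians were 48.7 for GFI1 and 53.6 for GFI1B, and Fgfr1 therefore stood just under the median of its list. The order Fgfr2 over Fgfr3 was the same in both lists, with no replicate to give it an error.

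The splice forms of Fgfr2 (ENSMUSG00000030849) are the main receptors of FGF7 and FGF10 in epithelium and of other FGFs in mesenchyme. Fgfr2 was listed with intervals over a far wider stretch than its own length. For GFI1:DAM it carried 13 intervals on chromosome 7 between 137433596 and 140158946 (mm9), a span of 2725 kb. For GFI1B:DAM it carried 16 between 137433698 and 140311398, a span of 2878 kb. Both spans start within 102 bp of each other, and the GFI1B span runs on past the end of the other. Interval width was 701 to 1701 bp for GFI1, with a median of 1051 bp, and 751 to 1801 bp for GFI1B, with a median of 1326 bp. These widths lay close to the medians of all intervals, 1201 and 1351 bp. What was unusual about Fgfr2 was thus the number of its intervals and the ground they cover, not the size of each.

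The intervals fell into a near and a far group with a wide empty stretch between. For GFI1 the near group held 6 intervals over 844 kb and the far group 7 over 650 kb, and the gap between them measured 1231 kb. For GFI1B the near group held 5 intervals over 696 kb and the far group 11 over 835 kb, with a gap of 1347 kb. No interval of either list, under any gene, lay in its list's gap. Outside the span the surroundings were bare as well. The last GFI1 interval before it was listed under Mcmbp, 1554 kb away, and the last GFI1B interval under Inpp5f, 1638 kb away. On the other side the next intervals were listed under Adam12 in both lists, 1274 kb away for GFI1 and 1002 kb for GFI1B.

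**Figure D1:**
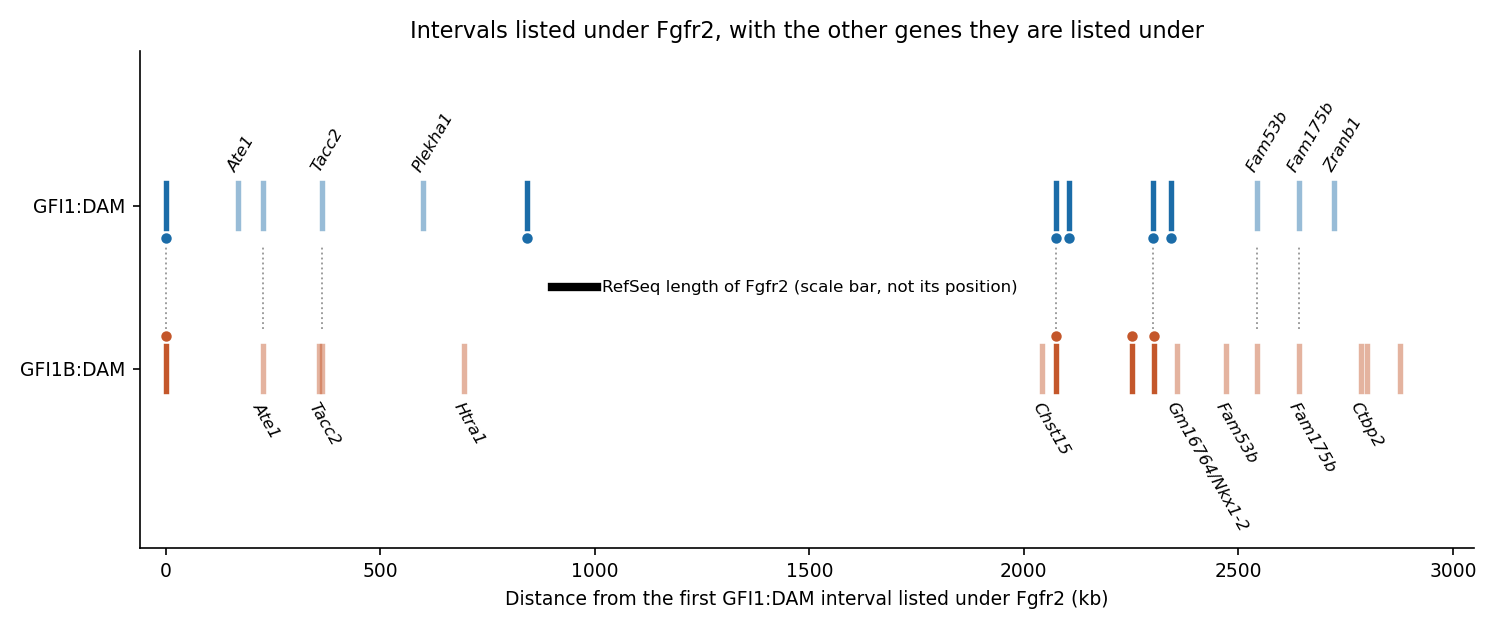
Each vertical bar is an interval listed under Fgfr2, placed by its distance in kb from the first GFI1:DAM interval, with GFI1:DAM above and GFI1B:DAM below. Dark bars with a dot are listed under Fgfr2 alone, pale bars also under the gene named beside them (successive bars of a gene are named once), and dotted lines join the 7 overlapping pairs. The black bar shows the RefSeq length of Fgfr2, 104 kb, for scale only.

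The order of the genes places nearly all of this ground beyond Fgfr2. In the RefSeq order of protein-coding genes on chromosome 7, Fgfr2 lies between Wdr11 and Ate1, on the minus strand, so Ate1 is on the side of its promoter. Ate1, Tacc2, Plekha1, Htra1, Chst15, Nkx1-2, Fam53b, Zranb1 and Ctbp2 follow in that order. Intervals listed under Fgfr2 and also under these genes came in the same order along the chromosome. Of the Fgfr2 intervals, 12 of 13 for GFI1 and 15 of 16 for GFI1B started more than the length of the gene past the first. A window as long as the gene would hold at most 2 of the GFI1 intervals and 3 of the GFI1B intervals, wherever it was placed. Sec23ip, Plpp4 and Wdr11, the 3 protein-coding genes before Fgfr2, were not listed for either fusion. Whether the first interval lies inside Fgfr2, in an exon or an intron, was not determined, since no mm9 annotation was used here.

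Every interval between the ends of the Fgfr2 span, 13 of 13 and 16 of 16, was listed under Fgfr2, and many were listed under a local gene too. The first trait is not particular to Fgfr2. It held for each of the 10 genes with the widest span in either list. For GFI1, 7 of the 13 carried a further gene and 6 did not. For GFI1B, 12 of the 16 carried a further gene and 4 did not. Over each whole list, 3.89% of the GFI1 intervals and 5.02% of the GFI1B intervals were listed under 2 or more genes. Shared listing was also common at 2 other genes of wide span. Arfip1 had 4 of 8 GFI1 and 8 of 18 GFI1B intervals under no other gene, and Gm20388 had 14 of 20 and 11 of 19. Of the 31 protein-coding genes that RefSeq places from Ate1 to Ctbp2, 6 had a GFI1 row and 8 a GFI1B row, and 4 had both. These counts lay near the 18.4% and 19.1% of all protein-coding genes, and the 21 other genes were in neither list.

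The near group for GFI1 opened with an interval under Fgfr2 alone at 137433596 to 137434796. Next came 2 intervals shared with Ate1, an arginyltransferase gene of protein turnover, at 137602896 to 137603696 and 137660696 to 137661396. Tacc2, a gene of the spindle-associated TACC family, shared 137798646 to 137799696, and Plekha1, a phosphoinositide-binding adaptor gene, shared 138034046 to 138034796. The last interval of the group, 138276946 to 138277646, was listed under Fgfr2 alone. The GFI1B near group also opened under Fgfr2 alone, at 137433698 to 137434898, and then shared 137660298 to 137661498 with Ate1. Tacc2 shared 137790448 to 137791348 and 137798648 to 137799648, and Htra1, a secreted serine protease gene, shared 138127898 to 138129248.

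The far group held most of the intervals listed under Fgfr2 alone, 4 of 6 for GFI1 and 3 of 4 for GFI1B, although it starts 2075 kb past the first GFI1 interval for GFI1 and 2043 kb past it for GFI1B. For GFI1 these lay at 139509096 to 139510196, 139539246 to 139540696, 139734796 to 139736496 and 139775646 to 139776496. For GFI1B they lay at 139508998 to 139510198, 139684848 to 139686198 and 139735798 to 139737398. All 7 lie between the GFI1B interval of Chst15, a chondroitin sulphotransferase gene, at 139476498 to 139477248 and that of the homeobox gene Nkx1-2 at 139789648 to 139791048. Beyond them Fam53b shared 139976246 to 139977796 for GFI1, and 139905098 to 139906398 and 139976498 to 139978298 for GFI1B. Fam175b, a deubiquitinase complex gene now called Abraxas2, shared 140073696 to 140074496 for GFI1 and 140073798 to 140074548 for GFI1B. The groups then parted. GFI1 ended at 140157496 to 140158946 with Zranb1, a deubiquitinase gene, and GFI1B ended with 3 intervals of the corepressor gene Ctbp2, at 140218198 to 140219698, 140232148 to 140233498 and 140309648 to 140311398.

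The fusions marked the same place 7 times within these surroundings. With an overlap of at least 1 bp, 7 of 13 GFI1 intervals (53.8%) and 7 of 16 GFI1B intervals (43.8%) were shared, where 39.2% of all GFI1 intervals and 36.9% of all GFI1B intervals were. When at least 200 bp had to be shared the 7 pairs stood beside 38.9% and 36.6% of all intervals, and when each interval had to be covered by at least 50% there were 6 pairs beside 28.5% and 26.9%. The shared bases numbered 699 to 1299, which is 41.1% to 100% of the GFI1 interval. Of the 7 pairs, 3 were listed under Fgfr2 alone in both lists and 4 under the same further gene, Ate1, Tacc2, Fam53b or Fam175b. The closest pair, at Tacc2, started 2 bp apart. The near group gave 3 of the pairs and the far group 4. The 6 GFI1 intervals without a partner lay 13.2 to 148 kb from the nearest GFI1B interval. The 9 GFI1B intervals without a partner lay 7.30 to 151 kb from the nearest GFI1 interval, so these were not near misses of the overlap rule.

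Part of the height of Fgfr2 came from intervals that it shared with its neighbours. The lists give reads per gene, and a gene's reads were the sum over its intervals in the 4 genes of each list where that could be checked in full. Sets of intervals listed under 2 or more genes, 107 for GFI1 and 172 for GFI1B, had the same reads under each gene. The reads of neighbours whose intervals all lie within the Fgfr2 set were therefore taken away from its total. For GFI1, 498 of the 855 reads of Fgfr2 lay in the 7 shared intervals, at 70.1 reads per kb, and 357 in the 6 intervals of its own, at 51.0. For GFI1B, 1449 of the 1733 reads lay in the 12 shared intervals, at 96.2 reads per kb, and 284 in the 4 of its own, at 53.0. On its own intervals Fgfr2 would stand above 54.7% of the GFI1 rows and 49.1% of the GFI1B rows, in place of 70.0% and 83.0%.

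Among the shared intervals the highest reads per kb fell at different genes in the lists. The intervals listed under Fgfr2 alone are known only as a sum, so none of them could be ranked singly. For GFI1 the highest shared ones were in the near group, with 115 reads per kb over the 2 intervals of Ate1, 96.1 at Tacc2 and 77.2 at Plekha1. The far intervals of Fam53b, Fam175b and Zranb1 had 42.6, 46.2 and 43.4. For GFI1B the 2 intervals of Fam53b stood out, with 601 reads and 194 reads per kb, which alone made up 34.7% of the reads of Fgfr2. Tacc2 followed with 122.5 reads per kb, then the place shared with Nkx1-2 and Gm16764 with 88.5 and Ate1 with 82.4. Chst15 had 75.9, Ctbp2 53.2, Fam175b 47.9 and Htra1 39.97. Depth is unknown, so whether GFI1B marked Fam53b more than GFI1 did cannot be read from these values.

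**Figure D2:**
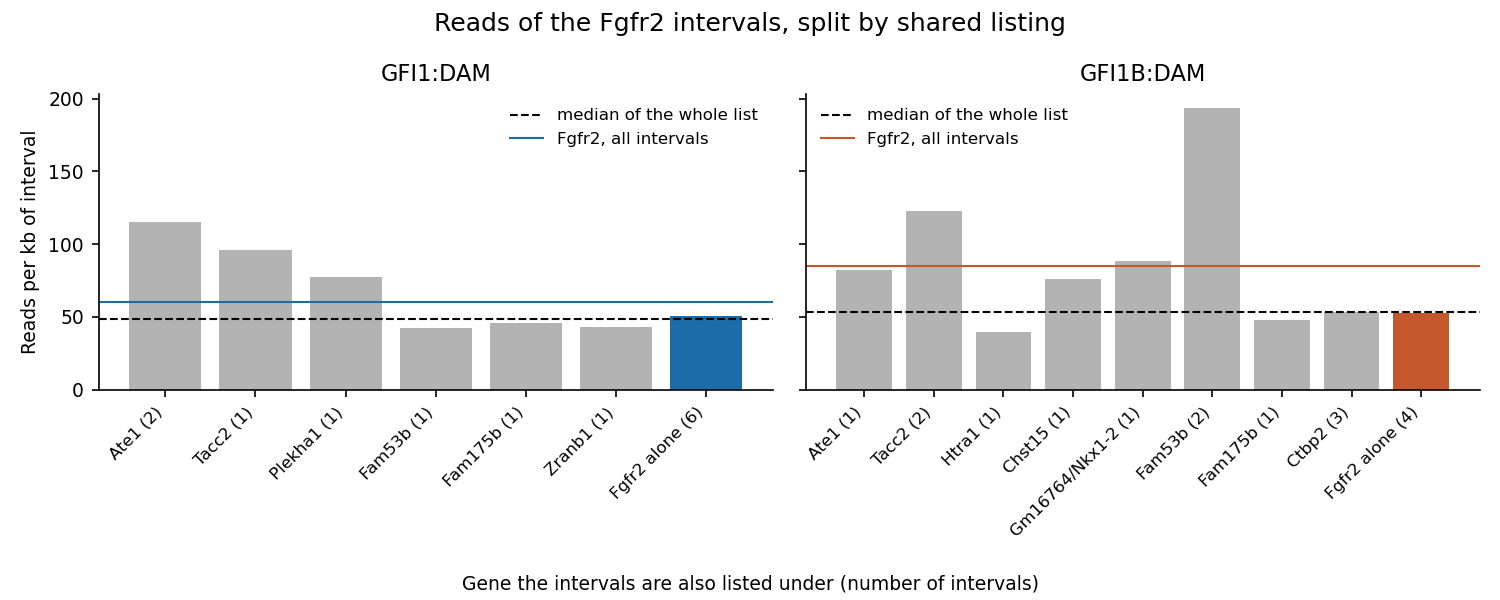
Bars give reads per kb of interval for the intervals listed under Fgfr2, grouped by the gene they are also listed under, with the number of intervals in brackets. The coloured bar holds the intervals listed under Fgfr2 alone, at 51.0 for GFI1:DAM and 53.0 for GFI1B:DAM, and lies close to the dashed median of its list, while the solid line is Fgfr2 over all its intervals. Each bar is a single pooled value without an error.

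The reach of Fgfr2 was set against that of every other gene with 2 or more intervals and a RefSeq length, 1238 genes for GFI1 and 1406 for GFI1B. Span exceeded gene length in 17.8% of these for GFI1 and 20.1% for GFI1B. The excess was at most 52.6 kb in 99% of the GFI1 genes and 49.7 kb in 99% of the GFI1B genes. Fgfr2 exceeded its length by 2621 and 2773 kb, the highest excess in both lists, at 26.1 and 27.6 times its length. Only Arfip1, an ARF-binding protein gene of 86.7 kb on chromosome 3, also passed 1000 kb, with 8 GFI1 intervals over 1200 kb and 18 GFI1B intervals over 1361 kb. In span alone Fgfr2 came second in both lists, behind Gm20388, which was not matched to a RefSeq gene. Fhit and Pde4d also had wide spans in both lists, but these genes are themselves 1612 and 1302 kb long, and their spans were 0.79 to 1.05 times their length. How the authors joined intervals to genes, and where their annotation ended Fgfr2, is not stated in the labels or headers, and the part of either in this reach was not tested.

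**Figure D3:**
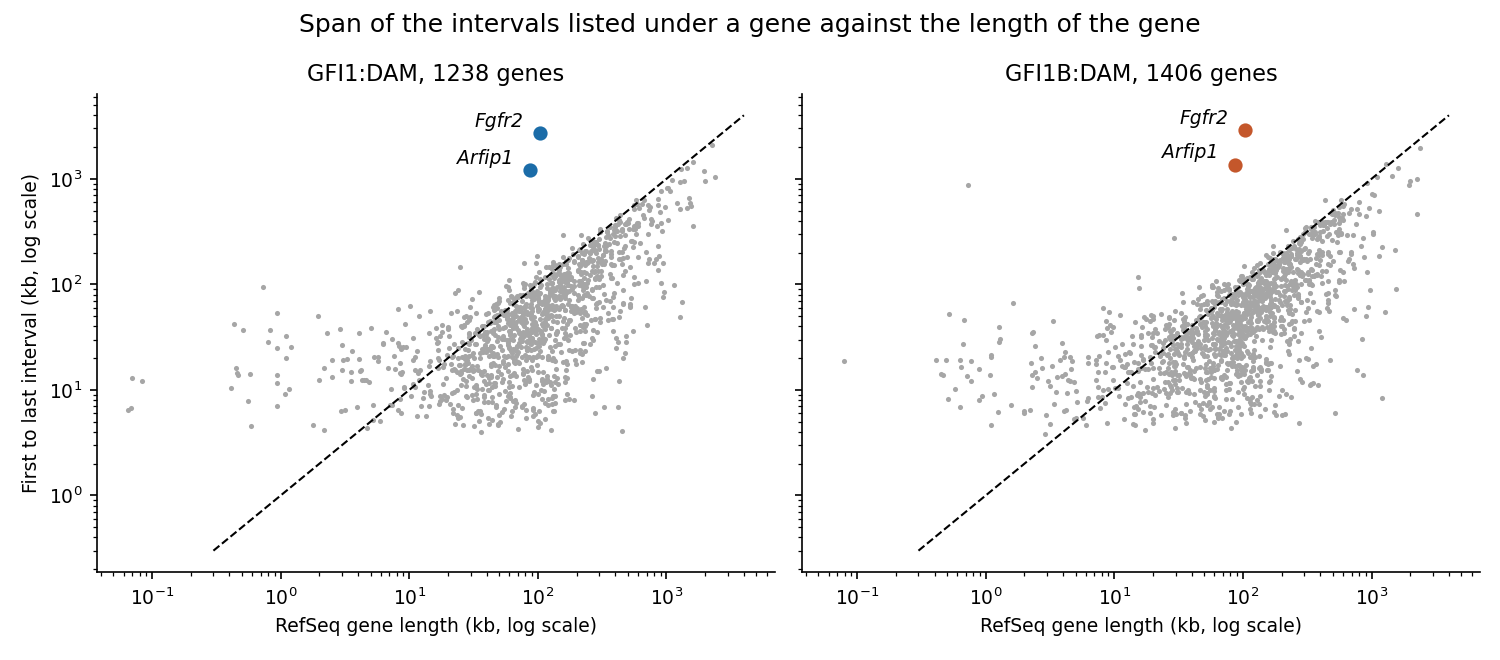
Each point is a gene with 2 or more intervals, placed by its RefSeq length in kb and by the distance in kb from its first to its last interval, both on log scales, with a dashed line where they are equal. Fgfr2, at 104 kb of length and spans of 2725 and 2878 kb, and Arfip1 stand far above the line in both panels.

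Between the first and last interval listed under Fgfr2, the density of intervals was above the average of the chromosome. Within the Fgfr2 span 4.77 GFI1 intervals and 5.56 GFI1B intervals were listed per Mb. Over the ground covered on chromosome 7 it was 2.87 and 2.98 per Mb, and over all chromosomes 2.81 and 2.97. The stretch was chosen because it holds many intervals, so no test was made. It was also cut at its outermost intervals, which by itself raises its density. The empty flanks, 1554 and 1274 kb for GFI1 and 1638 and 1002 kb for GFI1B, were left out. No excess over the chromosome is therefore read from these values.

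Fgfr1 (ENSMUSG00000031565), the receptor that early mesoderm depends on in the mouse, was listed at a single place and for GFI1B:DAM. The interval lay on chromosome 8 at 26627225 to 26628775 (mm9), 1551 bp wide, with 81 reads, and was listed under no other gene. The nearest GFI1 interval was 177 kb away, at 26805529 to 26806379, under Whsc1l1, a histone methyltransferase gene now called Nsd3. Whsc1l1 had a row for either fusion, with 52.9 (GFI1) and 61.9 (GFI1B) reads per kb, but its GFI1B interval lay elsewhere, at 26726525 to 26729725. Tacc1, of the TACC family, had a GFI1 row at 44.6 reads per kb and no GFI1B row. Within 500 kb of the Fgfr1 interval there were 3 GFI1 and 6 GFI1B intervals, and the fusions overlapped at a single place, under Plekha2, 442 kb from it. Over all intervals 39.2% (GFI1) and 36.9% (GFI1B) overlapped, and counts this small cannot be set apart from that share.

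Fgfr3 (ENSMUSG00000054252), the receptor known for restraining bone growth, was listed for both fusions at neighbouring places on chromosome 5 that did not overlap. The GFI1 interval lay at 34051482 to 34053482, 2001 bp wide with 70 reads. The GFI1B interval lay just before it at 34049732 to 34051032, 1301 bp wide with 54 reads, and 449 bp separated them. By the rule of at least 1 shared base this counts as no overlap, and by the looser rule of intervals within 1 kb as the same place, a rule that 39.8% of GFI1 and 37.5% of GFI1B intervals met. Of the 2953 genes listed for both fusions by identifier, 77.5% had an overlapping interval.

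Within 500 kb of the first Fgfr3 interval there were 9 GFI1 and 6 GFI1B intervals, and 3 of each overlapped. Over all intervals 39.2% (GFI1) and 36.9% (GFI1B) did, and these counts are too small to set apart from that share. On one side of Fgfr3 only GFI1 intervals were listed. Whsc1, a histone methyltransferase gene now called Nsd2, carried 4 GFI1 intervals between 34175132 and 34217032 at 45.9 reads per kb, and Whsc2, now called Nelfa, carried 1 of 3801 bp. Neither was listed for GFI1B, and no GFI1B interval lay within 500 kb on that side. On the other side the lists shared 3 places, under Spon2, Fam53a and Slbp, the histone stem-loop binding protein gene. The Fam53a intervals started at the same base, 33964732. Tacc3 and Letm1, which flank Fgfr3 directly, were listed for neither fusion.

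**Figure D4:**
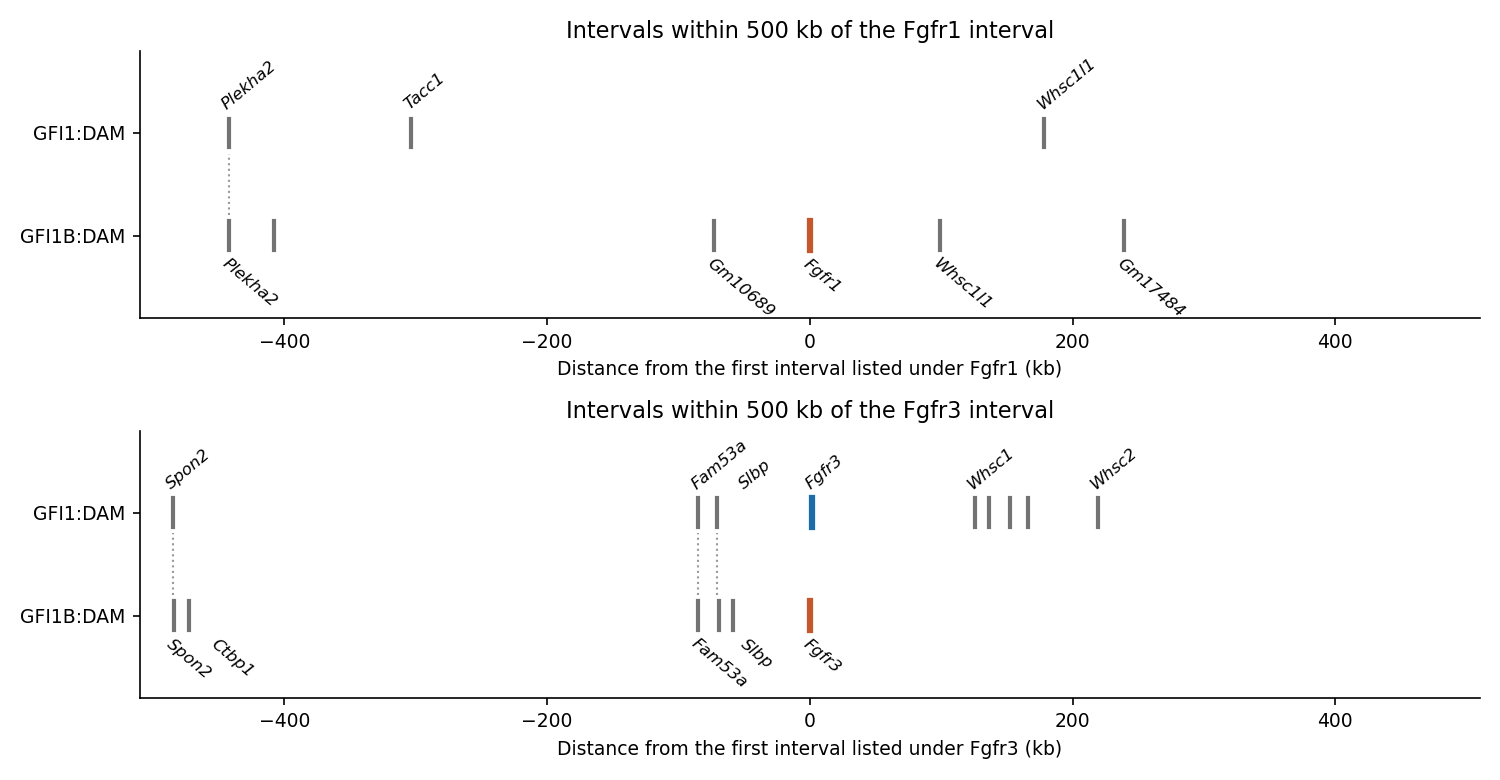
Each vertical bar is an interval of either list within 500 kb, placed by its distance in kb from the first interval listed under Fgfr1 (top) or Fgfr3 (bottom), with GFI1:DAM above and GFI1B:DAM below in each panel. Coloured bars are listed under the receptor, grey bars under the gene named beside them (successive bars of a gene are named once), and dotted lines join overlapping intervals, 1 around Fgfr1 and 3 around Fgfr3. Fgfr1 has a bar for GFI1B:DAM alone, and the Fgfr3 bars lie 449 bp apart.

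Fgfr4, a receptor of bile acid regulation in liver, was in neither list. Of the 10 nearest protein-coding genes in RefSeq order, 5 on each side, 1 was listed for GFI1 and 1 for GFI1B, counts too small to set apart from the 18.4% and 19.1% of all protein-coding genes. The first was Nsd1, a histone methyltransferase gene next to Fgfr4, with 3 GFI1 intervals between 55318060 and 55359760 on chromosome 13 at 58.1 reads per kb. The second was Zfp346, with a GFI1B interval at 55240556 to 55241656 at 57.2 reads per kb. The same count gave 3 and 2 around Fgfr1, 3 and 3 around Fgfr2, and 4 and 2 around Fgfr3.

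The FGF receptors sit among related families of genes, and the 12 genes of these families and of the immediate Fgfr2 surroundings were listed 6 times for GFI1 and 3 times for GFI1B. Their median length was 60.7 kb, and of protein-coding genes within 25% of it the lists held 29.7% and 30.5%, so the GFI1B count lay near that share. With 12 genes chosen for their place, nothing is read from the GFI1 count either. Those listed for both were Tacc2, Ate1 and Whsc1l1, and those listed for GFI1 alone were Tacc1, Whsc1 and Nsd1. The NSD histone methyltransferase genes near Fgfr1, Fgfr3 and Fgfr4 had GFI1 rows with 1, 4 and 3 intervals, and Whsc1l1 of the 3 also had a GFI1B row. No test of this difference was possible with a single list per fusion.

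The rest of the pathway was marked at many genes. Of 97 genes in 4 lists, the GFI1 list held 39 (40.2%) and the GFI1B list 41 (42.3%), with 27 in common. Of all protein-coding genes the lists held 18.4% and 19.1%, with 11.0% in common, and of all RefSeq genes 5.32% were in common. Their median length was 41.2 kb, against 17.1 kb for all protein-coding genes, and the GFI1 list held 23.5% and the GFI1B list 22.6% of protein-coding genes within 25% of 41.2 kb. The lists were drawn up with earlier results of these data known, so their counts are a description. Of the 27 genes listed for both, 24 had an overlapping interval, where 77.5% of all 2953 genes listed for both by identifier had one. Median reads per kb of the listed members were 47.6 for GFI1 and 46.1 for GFI1B, under the list medians.

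Among 24 ligand and ligand-binding genes, 8 had a GFI1 row, 7 a GFI1B row and 4 had both. That is 33.3% for GFI1 and 29.2% for GFI1B, beside 18.4% and 19.1% of all protein-coding genes. The difference from that share was not tested. Fgf10, the ligand of FGFR2 in limb and lung buds, carried 6 intervals in each list, over 91.9 and 88.8 kb, and 5 of its GFI1 intervals overlapped GFI1B intervals. It stood low for reads per kb, at 38.3 and 43.3. Fgf9, a ligand of FGFR2 and FGFR3, had 89.0 reads per kb with GFI1 and 59.3 with GFI1B, with overlapping intervals. Fgfbp1, which encodes a protein that releases FGFs from the matrix, stood at 58.8 and 127.5, and Fgf6 at 42.1 and 57.7. Fgf5 (50.6), Fgf23 (47.1), Fgf1 (34.4) and Fgf21 (25.3) were listed for GFI1 alone, and Fgf12 (59.9), Fgf20 (29.1) and Fgf13 (28.8) for GFI1B alone. Fgf11 to Fgf14, so also Fgf12 and Fgf13, encode intracellular homologous factors but were counted with the ligands. Fgf2, Fgf4 and Fgf8, known for roles in early embryos and mesoderm, were in neither list.

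Of 25 genes of co-receptors and heparan sulphate, 11 had a GFI1 row, 10 a GFI1B row and 8 had both. The median length of the 25 genes was 81.8 kb. Of protein-coding genes within 25% of a close length, 81.7 kb, the lists held 37.4% (GFI1) and 38.1% (GFI1B). The counts for GFI1 and GFI1B lay near these shares, and the difference was not tested. Sulf1, which encodes an enzyme that trims heparan sulphate, stood at 187 reads per kb for GFI1, the highest of the 97 genes, and at 49.7 for GFI1B at a place that did not overlap. Sdc4, a syndecan gene, stood at 114.5 and 57.5 at an overlapping place. Ext1, which encodes a polymerase of heparan sulphate chains, carried 5 intervals for GFI1 and 9 for GFI1B, and 4 of the 5 overlapped. Cdh2, the N-cadherin gene, carried 8 and 2, and 2 of the 8 GFI1 intervals overlapped a GFI1B interval. Flrt2, Flrt3, Gpc3 and Hs6st2 were also listed for both. Klb, the gene of the FGF21 co-receptor beta-klotho, was listed for GFI1 (62.8) and not for GFI1B, and Fgfrl1, the receptor-like gene without a kinase, for neither.

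Signal relay genes were listed 7 times of 25 for GFI1, 12 times for GFI1B and 6 times for both. Their median length was 52.8 kb, and near the length of Fgfr1, 57.0 kb, the lists held 28.2% and 28.5% of protein-coding genes. The GFI1 count, 28.0%, lay at that share, and the GFI1B count, 48.0%, above it. Frs2, the docking protein of the receptors, carried 2 intervals in each list, both overlapping, at 50.6 and 54.5 reads per kb. Map2k1 (89.9), Stat3 (55.2), Pik3ca (51.9), Gab1 (46.1), Sos1 (38.1) and Braf (29.99) were listed for GFI1B alone. The difference between the counts of 7 and 12 was not tested.

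Feedback inhibitors and target genes had the highest share of the 4 pathway lists, with 13 of 23 for GFI1, 12 for GFI1B and 9 for both. The lists held 18.4% (GFI1) and 19.1% (GFI1B) of all protein-coding genes. The median length of the 23 genes was 15.1 kb, and near the length of Fgfr3, 15.3 kb, 12.4% and 13.8% were listed. The 23 genes were chosen with earlier results of these data known, so their share is a description and was not tested. Spry1, a Sprouty gene, had 50.2 reads per kb with GFI1 and 74.7 with GFI1B, and Spred2, of a related family, at 59.1 and 74.02. Dusp6, the phosphatase gene that FGF signalling induces, carried 2 intervals for GFI1 (63.4) and 1 for GFI1B (46.3). Il17rd, which encodes the FGF inhibitor SEF, was listed for GFI1B (70.5) with 2 intervals and not for GFI1. Spry4 (69.1), Dusp4 (55.6), Rasa1 (34.2) and Dusp5 (34.1) were listed for GFI1 alone, and Rasa3 (41.3) and Spry2 (33.7) for GFI1B alone. Etv1, an ETS factor gene downstream of FGF, stood at 45.4 and 98.8, while Etv4 and Etv5 were in neither list.

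**Figure D5:**
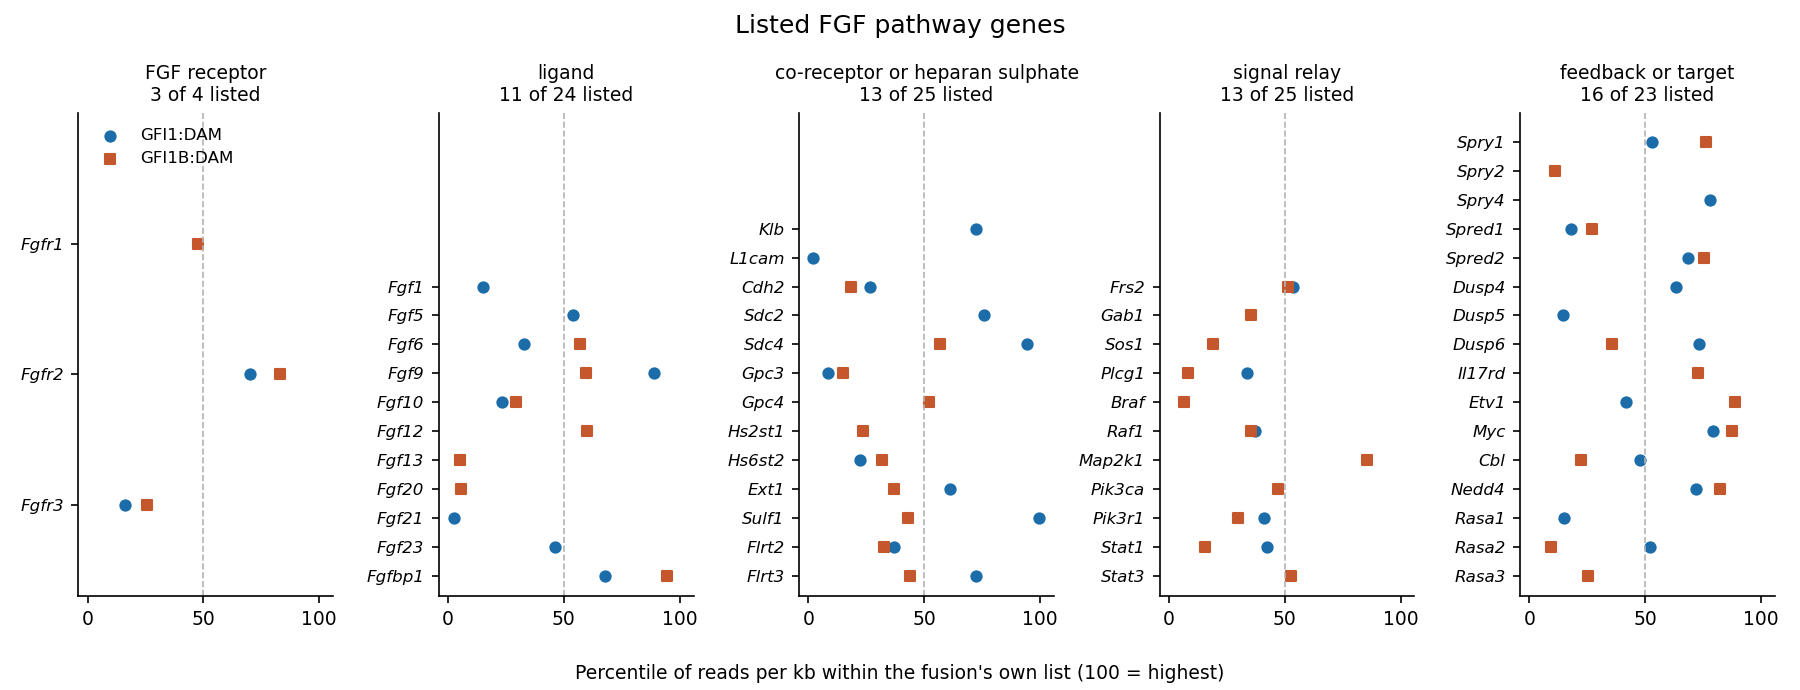
Points give the percentile of a gene's reads per kb within its own list (100 is the highest, the dashed line is the middle), as circles for GFI1:DAM and squares for GFI1B:DAM, for the 3 listed receptors and the listed genes of each pathway group, with not every listed signal relay gene drawn. A missing point means that the gene was not listed for that fusion. Fgfr2 lies above the middle in both lists and Fgfr3 below it, and Sulf1 for GFI1:DAM lies at the far right.

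None of 27 other receptor tyrosine kinase genes had as many intervals as Fgfr2 or as wide a span in either list. Fgfr2 was chosen for its many widely spread intervals, so this contrast is a description only. Of these genes 10 had a GFI1 row and 12 a GFI1B row, and 8 had both. Shares of 37.4% and 38.1% were listed among protein-coding genes within 25% of their median length of 81.7 kb, so the counts lay near that background. The highest number of intervals among them was 4 for GFI1 and 6 for GFI1B, both at Igf1r, the insulin-like growth factor 1 receptor gene, and the widest spans were 243 and 207 kb, at the same gene. No span among them exceeded 1.36 times the gene's length. Igf1r is 281 kb long, longer than Fgfr2. Kdr, the gene of FLK1, carried 2 and 3 intervals over 11.6 and 27.1 kb.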

How the data were processed

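The analysis used 1 gene list for GFI1:DAM and 1 for GFI1B:DAM, each from 2 biological replicates that were pooled per the labels. Intervals were called with BayesPeak per the file headers. For GFI1B the header adds a second step named SS with a threshold of 0.05, merged lanes and control reads subtracted, whereas the GFI1 header stops after BayesPeak. The aligner is not stated in the labels or headers, and mm9 is the build in the submitters' processing notes. Read numbers, as deposited for each gene, were handled as a score because control reads may already be taken off. The deposited reads per kb of interval were treated as a signal that is not scaled to library size, and were recomputed from read number and summed width to within 0.0051. Sequencing depth is unknown, so no counting error is given.

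Intervals were read as 1-based and inclusive. Overlap meant at least 1 shared bp, and intervals up to 500 kb apart formed a group. Symbols were matched to RefSeq on GRCm38.p6, for 4633 of 5238 and 4745 of 5327 rows, and that table gave names, gene lengths, gene order and promoter sequences only. Percentages of listed genes refer to its 49997 genes, 21900 of them protein-coding. With a single list per fusion no test was made. The genes named are the receptors, every gene sharing their intervals, the members of the pathway, neighbour and receptor kinase lists, and the genes with the widest spans or most intervals. Genes within 500 kb of Fgfr1 and Fgfr3 outside those lists, and Zfp346, were named after their values were seen. Members and lists were chosen with earlier results of these data known. The steps were tested on simulated data. Python 3.11.15, pandas 2.3.3, numpy 2.4.6 and matplotlib 3.10.9 were used. Some listed signal relay, co-receptor and feedback or target genes are counted but not reported singly here.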

Additional observations from a re-analysis of the deposited data

How the results depend on the processing

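No paired analysis was possible because each fusion has a single pooled list and no test was made. Of 47 alternative values, 27 lay within 1.5 times the reported value and 20 did not. The overlapping Fgfr2 pairs numbered 6 with a reciprocal overlap of 50% and 7 with at least 200 bp or within 1 kb. Restricted to intervals listed under no other gene, Fgfr2 had 6 intervals over 2343 kb for GFI1 and 4 over 2304 kb for GFI1B. Its reads per kb were then 51.0 and 53.0, an alternative chosen after seeing the data. Restricted to rows above the median reads per kb of each list, 1 receptor remained for GFI1 and 1 for GFI1B, and 19 and 15 pathway genes. By group these were 6 and 2 for co-receptors, 3 and 4 for ligands, 2 and 3 for signal relay, and 8 and 6 for feedback and target genes. The background rose from 9.24% and 9.45% of all RefSeq genes to 18.4% and 19.1% of protein-coding ones. Ranked by read number instead of reads per kb, Fgfr2 came at 14 for GFI1 and 8 for GFI1B, Fgfr3 at 2758 and 4118, and Fgfr1 at 3054 for GFI1B. With a gap of 250 kb the GFI1B intervals of Fgfr2 formed 3 groups of 4, 1 and 11. Depth, replicate spread and control signal are unknown here, which limits every value.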
